A study of Mus musculus with 14 samples.

Results

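The proteasome subunits were followed in the mouse fibroblast line 3T3-L1 as it became fat cells under hormones. The 39 genes were taken by name. They are all genes that had a probe set to themselves and whose symbol is Psma, Psmb, Psmc, Psmd or Psme followed by a number, without the 3 immunoproteasome genes Psmb8, Psmb9 and Psmb10. They were 39 of the 18193 genes so measured, and 37 of them reached an intensity of 50 on at least 3 of the 14 arrays, the filter that 8682 genes passed. By role, 8 were of the alpha ring and 8 of the beta ring of the 20S core, 9 of the base and 8 of the lid of the 19S cap, 3 were chaperones of cap assembly, and 3 were activators that cap the core in place of the 19S particle.

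Both arms were 3T3-L1 cells carrying a retrovirus, which gave V5-tagged SETD5 from a weak viral promoter in one line and was empty in the other. After confluence the cells got insulin, dexamethasone and IBMX up to 48 h and insulin alone from then on. RNA was taken at 0, 12, 24, 36, 48, 96 and 192 h and read on a single array for each line and hour. No hour thus had a replicate. Between the arms and between phases, the hours stood in for replicates. For each hour against 0 h, the differently treated lines stood in for replicates. The SE there rests on how far the difference between the lines varied from hour to hour. Each arm was 1 transduced line, so SETD5 and any other difference between the lines cannot be told apart. Values are linear intensities, scaled by the authors to 1 trimmed mean per array, and differences are log2 values after adding 16, with limma's SE. A gene was called at a Benjamini-Hochberg adjusted p under 0.05 over all 8682 genes.

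The arrays had 3′ to 5′ intensity ratios of Gapdh probe sets of 0.838 to 0.880 in the SETD5 arm and 0.820 to 0.909 in the empty virus arm. Those of Actb were 1.58 to 2.26 in the SETD5 arm and 1.57 to 2.51 in the empty virus arm, lowest at 0 h and highest at 36 h in both, and their part in the changes from 0 h was not tested. The summed intensity of 7 measured fat-cell markers at 192 h was 19471 in the SETD5 arm and 33527 in the empty virus arm. At 0 h it was 1785 in the SETD5 arm and 1605 in the empty virus arm. None of the 4 macrophage, 3 endothelial and 3 epithelial markers passed the filter. The 4 measured markers of cell division summed to 9095 at 24 h in the SETD5 arm and 9366 in the empty virus arm, their highest hour in both arms, and to 395 (SETD5) and 328 (empty virus) at 192 h. The part of these markers in the changes of the subunits was not tested. As whole cultures were measured, fewer cells of a type and less RNA per cell cannot be told apart.

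The proteasome breaks down proteins tagged with ubiquitin. Its 20S core is a barrel of stacked rings in which the beta rings carry the cutting sites and the alpha rings form the gate. The 19S cap binds the tag, removes it, unfolds the protein with a ring of ATPases in its base and feeds it into the barrel. Cells can raise all subunit genes together through the transcription factor encoded by Nfe2l1, which binds antioxidant response elements. Activators of the Psme family open the gate without using ubiquitin, and Psme1 is induced by interferon gamma together with the immunoproteasome subunits.

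RefSeq gave 33 promoters of GRCm38.p6 for 31 of the 37 genes that passed, each 300 bases long across a gene start. The promoters of 4 genes are printed because they carry the motifs searched for, or belong to the gene that fell most. The motifs were the antioxidant response element core TGACNNNGC and the CCAAT box CCAAT, on both strands, and their matches are in capitals. Psmb5 (chr14:54617946-54618245, minus strand) encodes the chymotrypsin-like beta subunit, Psmb3 (chr11:97703184-97703483, plus strand) a beta subunit with no cutting site, Psma1 (chr7:114276067-114276366, minus strand) an alpha subunit and Psme1 (chr14:55578244-55578543, plus strand) an activator subunit.
Psmb5: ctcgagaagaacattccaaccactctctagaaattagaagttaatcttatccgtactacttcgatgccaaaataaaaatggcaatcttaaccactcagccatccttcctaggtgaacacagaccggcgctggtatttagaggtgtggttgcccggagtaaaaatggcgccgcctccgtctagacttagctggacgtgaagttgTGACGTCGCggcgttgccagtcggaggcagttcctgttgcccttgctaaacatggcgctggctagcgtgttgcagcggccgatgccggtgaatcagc
Psmb3: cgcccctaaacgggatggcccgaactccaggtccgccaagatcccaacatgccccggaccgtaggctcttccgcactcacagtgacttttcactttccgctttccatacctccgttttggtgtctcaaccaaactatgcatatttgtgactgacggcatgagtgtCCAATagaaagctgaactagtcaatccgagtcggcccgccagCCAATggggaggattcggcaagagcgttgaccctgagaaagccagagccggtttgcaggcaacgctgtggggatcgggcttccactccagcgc
Psma1: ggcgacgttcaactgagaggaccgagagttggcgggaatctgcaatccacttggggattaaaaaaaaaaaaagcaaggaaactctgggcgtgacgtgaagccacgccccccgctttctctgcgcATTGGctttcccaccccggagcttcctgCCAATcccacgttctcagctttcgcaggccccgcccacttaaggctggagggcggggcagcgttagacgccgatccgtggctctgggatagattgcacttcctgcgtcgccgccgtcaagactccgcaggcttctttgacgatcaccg
Psme1: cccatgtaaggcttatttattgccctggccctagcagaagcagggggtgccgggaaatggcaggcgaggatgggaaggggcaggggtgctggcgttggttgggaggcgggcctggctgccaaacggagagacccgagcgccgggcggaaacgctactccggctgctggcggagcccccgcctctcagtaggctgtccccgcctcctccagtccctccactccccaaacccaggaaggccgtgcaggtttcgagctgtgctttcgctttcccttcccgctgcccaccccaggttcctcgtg

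The core antioxidant motif was found in 6 of the 33 promoters (18.2%), against 14.4% of the 9112 promoters of all tested genes and 12.4% of all 32851 promoters. The 6 were those of Psmb5, Psmb6, Psmc6, Psmd12, Psmd9 and Psme4, and in Psmb5 the site TGACGTCGC began 47 bases before the start. The CCAAT box was found in 12 of 33 (36.4%), against 38.1% of the promoters of tested genes and 37.4% of all promoters. Psma1 and Psmb3 had 2 CCAAT matches each, and the Psme1 window had a match to neither motif. By role, 5 of 8 alpha-ring promoters held a CCAAT box and none of the 8 held the antioxidant core. A match is a description of letters only.

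Most subunit mRNAs were higher at 12 h of differentiation than at 0 h in both arms. The largest rises were those of Psme3, Psmd7, Psmd13, Psmd3 and Psmb3, at 0.70 to 0.87 on the log2 scale, and a single member, Psme1, was called lower. Of the other 36, Psmb1 and Psmd10 had estimates below 0 without a call. With both arms together, 20 of 37 members were called higher at 12 h, where 19.9% of all tested genes were called higher. For 1 of 37 members called lower the background was 27.9%. The median change of the members was 0.39, against -0.06 over all tested genes. Of the 20 calls, 14 held in all 13 alternatives, and those of Psmc1, Psmd1, Psmd11, Psmd14, Psma2 and Psmd5 did not. Scaling the arrays to a common median moved the median of all genes by 0.11 at this hour, and the members' median was then 0.51.

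The cap gave more of these calls than the core. At 12 h, 13 of the 17 cap members and 5 of the 14 core members that passed were called higher (19.9% of all tested genes). The median change was 0.53 for the cap and 0.35 for the core. Within the cap the lid had 7 of 8 and the base 6 of 9, and within the core the alpha ring had 2 of 7 and the beta ring 3 of 7. The difference between core and cap was not tested, and the arrays of 1 hour are common to all these counts. In the SETD5 arm alone the cap median at 12 h was 0.45 and the core median 0.32, and in the empty virus arm the cap median was 0.58 and the core median 0.35. The cap median was still the higher at 24 h, but not at 36 h. With quantile normalization it stayed the higher at 24, 36 and 48 h, with 0.22 against 0.13 at 48 h. Over both arms the medians at 24, 36 and 48 h were 0.38, 0.22 and 0.29 for the cap and 0.27, 0.27 and 0.29 for the core.

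**Figure D1:**
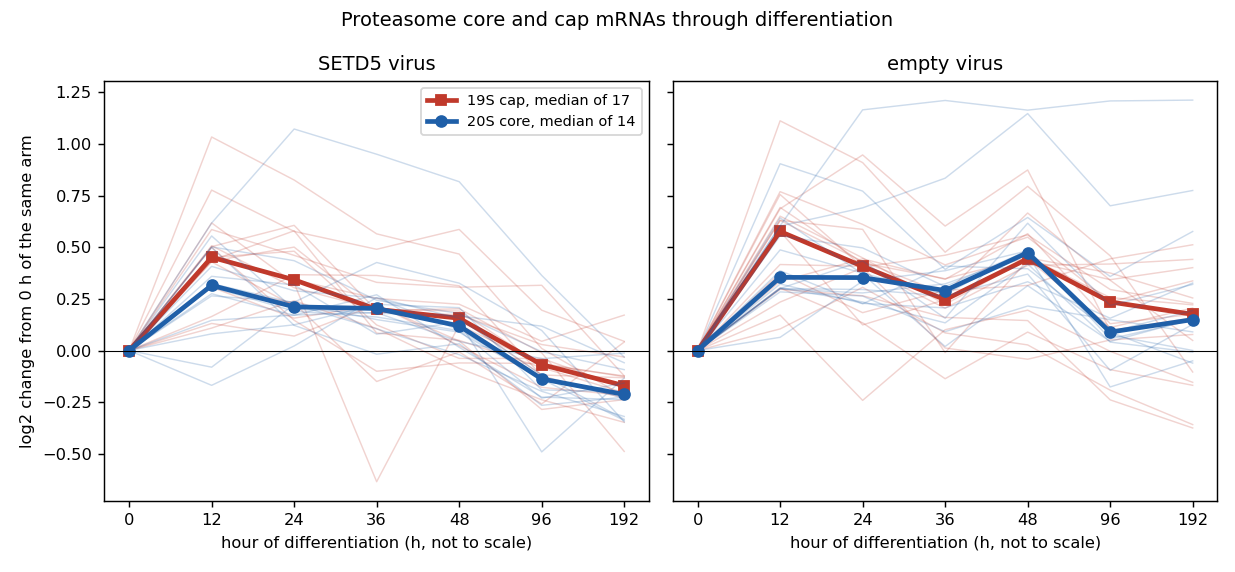
Each thin line is 1 member's log2 change from 0 h of its own arm at each hour, and thick lines are the medians of the 17 cap and 14 core members, with the SETD5 virus on the left and the empty virus on the right. At 192 h both medians lie below 0 in the SETD5 arm (-0.17 for the cap and -0.21 for the core) and above 0 in the empty virus arm (0.18 for the cap and 0.15 for the core). The single 0 h arrays differed, by a median SETD5 minus empty virus of 0.09 for the cap and 0.18 for the core.

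Among the lid subunits, Psmd7, the partner of the deubiquitinase Psmd14, had intensities of 585, 1215, 1049, 873, 815, 589 and 499 in the SETD5 arm from 0 to 192 h. With the empty virus they were 600, 974, 1171, 919, 1112, 643 and 671. Both arms were thus above their own 0 h value at each of 12, 24, 36 and 48 h. The change at 12 h was 0.86 ± 0.17 (SE, adjusted p = 0.00215) and at 24 h 0.89 ± 0.17 (adjusted p = 0.00233). A dimmer probe set of Psmd7 gave 0.64 ± 0.17 at 12 h (adjusted p = 0.0103) and 0.65 ± 0.17 at 24 h. It gave no call at 36 h (0.11 ± 0.17) or 48 h (-0.14 ± 0.17), hours at which the brighter one was called higher.

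Psmd13, a lid scaffold subunit, read 228, 330, 355, 263, 265, 226 and 158 in the SETD5 arm from 0 to 192 h. With the empty virus it read 188, 425, 367, 268, 338, 264 and 174. Its highest hour was 24 h with SETD5 and 12 h with the empty virus, and its lowest was 192 h in both. The change at 12 h was 0.81 ± 0.15 (adjusted p = 0.00154). Psmd3, another scaffold subunit of the lid, was called higher at 12, 24, 36 and 48 h, with 0.70 ± 0.12 at 12 h (adjusted p = 0.000947) and 0.63 ± 0.12 at 48 h (adjusted p = 0.00315). Psmd14 itself, which removes the ubiquitin chain, was the brightest lid member. Its intensities from 0 to 192 h were 1811, 2250, 2124, 1630, 1802, 1511 and 1864 with SETD5, against 1940, 2397, 2131, 1764, 2065, 1819 and 1725 with the empty virus. Its highest value was at 12 h in both arms, and its change at that hour was small, 0.31 ± 0.11 (adjusted p = 0.0488). Psmd8, the single lid subunit not called at 12 h, was at 0.25 ± 0.13 at 12 h and was called higher at 24 h (0.41 ± 0.13) and at 48 h (0.44 ± 0.13).

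In the base, the ATPase gene Psmc5 had the largest change at 12 h, 0.64 ± 0.12 (adjusted p = 0.00179), and it was also called higher at 24 and 48 h. Its intensity at 12 h was 750 in the SETD5 arm and 761 in the empty virus arm, and at 0 h it was 494 in the SETD5 arm and 465 in the empty virus arm. Psmc2, the brightest base member and also an ATPase, read 1787, 2533, 1980, 1666, 1714, 1711 and 1635 with SETD5, against 1359, 2142, 1860, 1589, 1854, 1469 and 1570 with the empty virus. Both arms had their highest value at 12 h, where the change was 0.57 ± 0.13 (adjusted p = 0.00466). The large base scaffolds Psmd1 and Psmd2 and the ubiquitin receptor Psmd4 were called higher at 12 h, by 0.42 ± 0.15, 0.53 ± 0.17 and 0.54 ± 0.15. Psmc3, Psmc4 and Psmc6 were not called at 12 h, with 0.21 ± 0.12, 0.39 ± 0.25 and 0.11 ± 0.10. The second probe set of Psmc4 did give a call at that hour, at 0.70 ± 0.12 (adjusted p = 0.00114), so the 2 probe sets of this gene disagreed. Psmc6 had the smallest change of the base.

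In the core, the beta subunit Psmb3 read 993, 1412, 1348, 1178, 1126, 989 and 930 in the SETD5 arm and 850, 1605, 1463, 1121, 1337, 1094 and 1275 in the empty virus arm. Its values at 12 and 24 h were the highest of each arm. The change at 12 h was 0.70 ± 0.15 (adjusted p = 0.00369), and a second probe set gave 0.68 ± 0.13. Of the 3 catalytic subunits, Psmb5 was called higher at 12 h, at 0.48 ± 0.12 (adjusted p = 0.00922). Psmb6, with the caspase-like site, was at 0.11 ± 0.14 and Psmb7, with the trypsin-like site, at 0.32 ± 0.17, and neither was called. The promoters of Psmb5 and Psmb6 both held the antioxidant core, and Psmb7 had no promoter among those searched. Psmb4 was the brightest beta-ring member, at 2146, 2270, 2341, 2508, 2480, 1878 and 1866 with SETD5, against 1890, 2327, 2296, 2368, 2615, 1671 and 1825 with the empty virus. It was at 0.19 ± 0.11 at 12 h without a call and was called higher at 48 h alone (0.34 ± 0.11, adjusted p = 0.0354). A second probe set of Psmb4 gave 0.04 ± 0.17 at 48 h (adjusted p = 0.875), and with quantile normalization the brightest gave 0.10 ± 0.09 (adjusted p = 0.442). Psmb1 had the smallest change at 12 h among the core members, at -0.05 ± 0.11.

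Of the alpha ring, Psma2 and Psma7 were called higher at 12 h, at 0.38 ± 0.13 and 0.47 ± 0.13. Psma3 was the brightest member of the ring, at 2259, 2501, 2546, 2567, 2329, 2197 and 2239 with SETD5, against 2149, 2690, 2520, 2482, 2711, 2397 and 2699 with the empty virus. It was called at no hour, and its change at 12 h was the smallest of the ring, at 0.23 ± 0.12. Psma6 was called at 48 h alone by its brightest probe set, at 0.74 ± 0.22 (adjusted p = 0.0261). Its second probe set was called higher at 12 h (0.41 ± 0.13, adjusted p = 0.0244), 36 h (0.55 ± 0.13) and 48 h (0.56 ± 0.13).

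**Figure D2:**
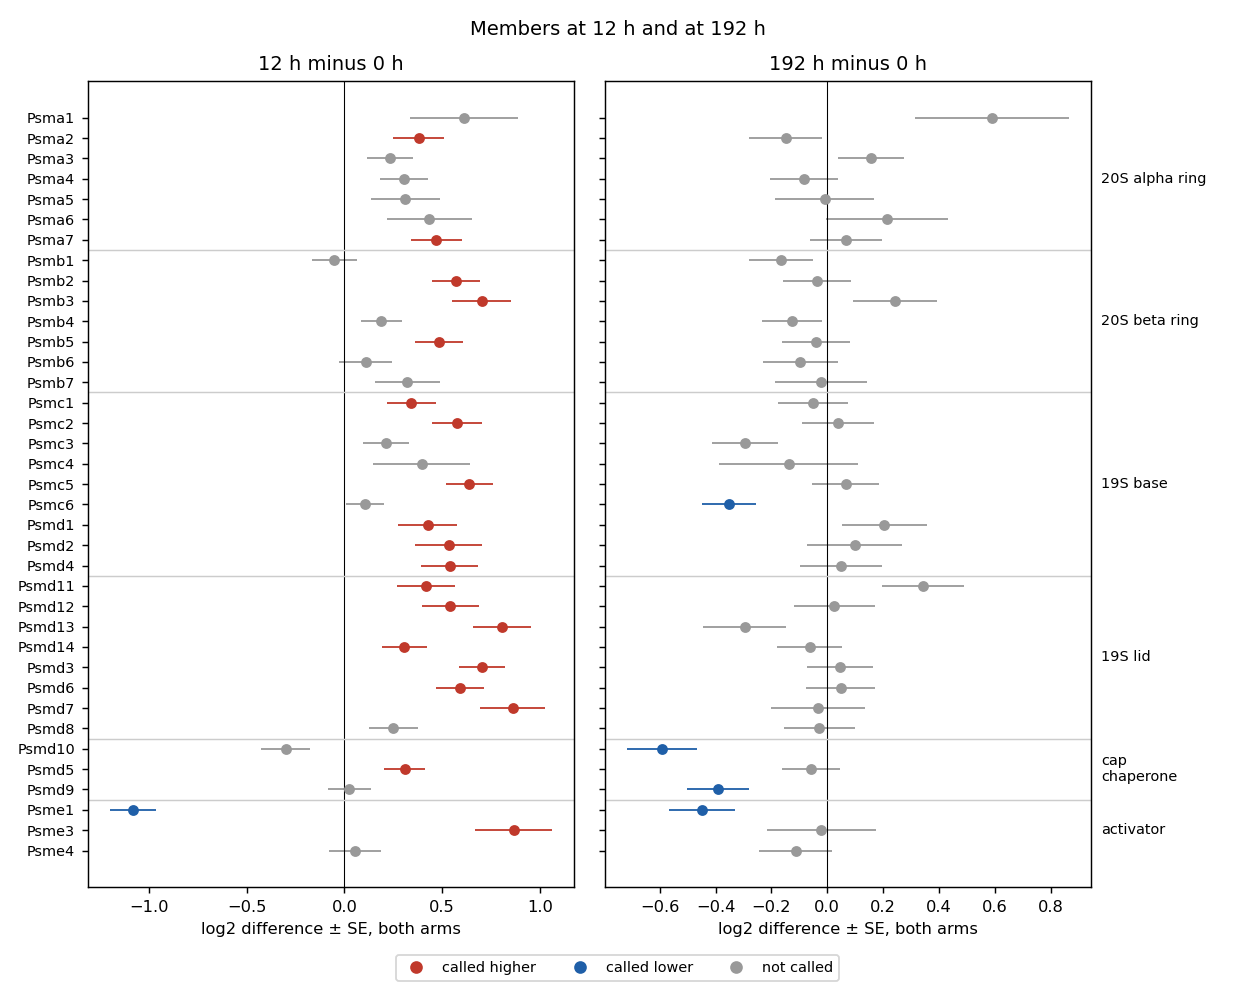
Each point is 1 member's log2 difference from 0 h over both arms with its SE, ordered by role, at 12 h on the left and 192 h on the right, and the axes have different ranges. At 12 h red points, called higher, number 20, among them 7 of the 8 lid and 6 of the 9 base members, and at 192 h the 4 called members are all lower.

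The activators went separate ways. Psme1 read 747, 338, 347, 428, 386, 513 and 516 in the SETD5 arm from 0 to 192 h, and 727, 341, 281, 385, 394, 470 and 556 in the empty virus arm. All 12 later arrays were below the 0 h array of their arm. The difference from 0 h was -1.08 ± 0.12 at 12 h (adjusted p = 8.2e-05) and -1.20 ± 0.12 at 24 h (adjusted p = 5.2e-05), and Psme1 was called lower at all 6 later hours, at -0.45 ± 0.12 by 192 h (adjusted p = 0.0266).

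Psme3, which encodes the nuclear activator, was higher at 12 h by 0.87 ± 0.20 (adjusted p = 0.00501). Its intensities were low, at 82.2, 160, 105, 64, 73.3, 53.7 and 71.6 with SETD5, against 78.0, 158, 108, 64.7, 98.2, 108 and 86.4 with the empty virus. The 12 h arrays were the highest of each arm, and the arms parted from 48 h on. Psme4, which encodes a large single-chain activator and is the brightest of the 3, read 847, 960, 927, 1123, 983, 1325 and 762 with SETD5, against 1048, 999, 868, 1219, 1055, 1291 and 994 with the empty virus. Both arms were highest at 96 h, where Psme4 was the single member called higher (0.47 ± 0.13, adjusted p = 0.0391).

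Of the 3 cap assembly chaperones, 1 was called higher and 2 lower at some hour. Psmd5 was called higher at 12 h alone, at 0.31 ± 0.10 (adjusted p = 0.0324), and as the brightest of the 3 it read 392.3, 512, 443, 418, 418, 419 and 375 with SETD5, against 415, 494, 421, 404, 409, 459 and 400 with the empty virus. Its 12 h values were the highest of both arms. Psmd10, known as gankyrin, was at -0.30 ± 0.13 at 12 h without a call and was called lower at 192 h, at -0.59 ± 0.13 (adjusted p = 0.011). Psmd9 was called lower at 36, 48, 96 and 192 h, the furthest at 96 h with -0.52 ± 0.11 (adjusted p = 0.0123).

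Fewer members were called higher at the later hours. At 24 h there were 12 of 37 (16.4% of all tested genes). At 36, 48, 96 and 192 h there were 3 (12.4%), 9 (14.4%), 1 (6.12%) and 0 (7.30%). Members called lower numbered 1 (21.9%), 2 (17.0%), 2 (19.9%), 2 (9.53%) and 4 (12.3%) at 24, 36, 48, 96 and 192 h, the last 4 being Psmd10, Psme1, Psmd9 and the ATPase gene Psmc6 (-0.35 ± 0.10). Of the 20 members called higher at 12 h, 9 were among the 12 called at 24 h and 5 among the 9 called at 48 h. In all, 26 of 37 members were called higher at 1 or more hours (35.6% of all tested genes), among them 15 of 17 in the cap and 8 of 14 in the core. Members called lower at 1 or more hours were 4 (43.3% of all tested genes), and 8 were called at no hour. At an unadjusted p under 0.05 in limma, 1 member was higher at 192 h, as were 1221 of the 8682 tested genes. Without the 192 h arrays 7 members were called higher at 36 h and 3 at 96 h (1398 and 912 of the 8682 tested genes). Without the 12, 36 or 48 h arrays none was called higher at 96 h (465, 474 and 467 genes). At 192 h, 2 were called lower without the 24 h arrays (880 genes). With a common median the counts of higher and lower members were 12 and 1 at 36 h (1451 and 1179 of 8681 tested genes). With quantile normalization they were 3 and 1 (1192 and 1181 of 8672). At 48 h they were 12 and 1 with a common median (1596 and 1411 of 8681). At 96 h quantile normalization gave 0 and 2 (630 and 753 of 8672).

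The alpha subunit Psma1 kept a course unlike that of most members. In the SETD5 arm it read 922, 1422, 1956, 1796, 1637, 1191 and 901 from 0 to 192 h. With the empty virus it read 950, 1453, 2151, 2221, 2149, 2217 and 2223. The SETD5 arm was back at its 0 h intensity by 192 h, and the empty virus arm stayed at the level it had at 24 h. The cap members Psmd1 and Psmd11 were also highest at 192 h with the empty virus, at 839 and 1970, against 621 and 1519 with SETD5. Over both arms Psma1 was called higher at 24 h (1.12 ± 0.28, adjusted p = 0.00968), 36 h (1.08 ± 0.28) and 48 h (0.99 ± 0.28).

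Psma1 was also the single member called in the late comparison between the arms, over 36, 48, 96 and 192 h. SETD5 minus empty virus was -0.72 ± 0.15 (adjusted p = 0.0175, n = 4 hours), a mean intensity of 1381 ± 410.0 with SETD5, against 2203 ± 36 with the empty virus (SD). SETD5 lay below the empty virus at all 7 hours, as it did for 236 of the 8682 tested genes. The late intensities of the arms did not overlap, as was also so for Psmc1 and Psmd11. How many of all tested genes had no such overlap was not counted. The call was lost without the 96 h arrays, with the mean of all probe sets and without pairing the hours. A second probe set of Psma1 gave -0.36 ± 0.20 (adjusted p = 0.251). The summed fat-cell markers were 5742 with SETD5 and 11192 with the empty virus at 48 h, and their part in this result was not tested.

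**Figure D3:**
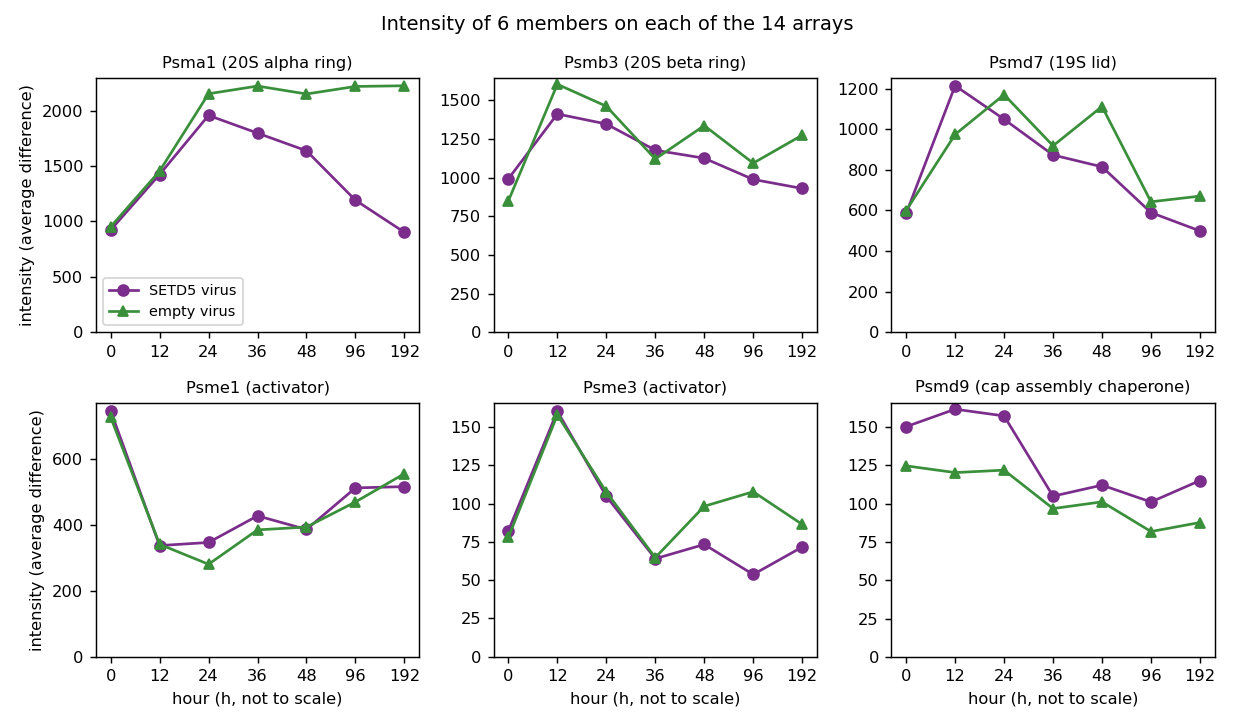
Intensity (average difference, linear axis from 0) of Psma1, Psmb3, Psmd7, Psme1, Psme3 and Psmd9 at each hour, 1 array per point, circles for the SETD5 virus and triangles for the empty virus. Psma1 ends at 901 with SETD5, against 2223 with the empty virus, while Psme1 lies below its 0 h value at every later hour in both arms.

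For the whole group, SETD5 minus empty virus over the late hours was below 0 for 30 of 37 members and for 3643 of all 8682 tested genes. The median was -0.12 for the members, against 0.04 over all tested genes. The medians were -0.13 for the core and -0.15 for the cap. With 1 member called lower (4.56% of all tested genes) and 0 called higher (7.43%), the calls were no more frequent than in the background. At an unadjusted p under 0.05 in limma 9 members were lower and 2 higher. Over all 8682 tested genes 1066 were lower and 1646 higher at that threshold. All 7 alpha-ring members and all 8 lid members that passed had a negative estimate, from -0.07 to -0.72 and from -0.06 to -0.26. In all, 8 members lay below at all 4 late hours (21.6%), against 11.5% of all tested genes, and 6 of them were in the cap.

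By hour, the median difference between the arms was 0.09, 0.02, 0.00 and 0.06 at 0, 12, 24 and 36 h. It was -0.18, -0.14 and -0.23 at 48, 96 and 192 h. Over all tested genes it lay between 0.00 and 0.12. Members below 0 numbered 10, 16, 18 and 12 at the first 4 of these hours, and 33, 25 and 30 at the last 3. At 48 h this was 89.2% of members and 50.5% of all tested genes. The members of a complex share their cultures and arrays, so these counts describe 7 pairs of arrays.

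The rule named further late differences, of which none was called. In the alpha ring the largest besides Psma1 were Psma5 and Psma6, both at -0.27, and the smallest was Psma2 at -0.07 ± 0.09. In the beta ring the largest was Psmb3 at -0.19 ± 0.10 and the smallest Psmb1 at 0.00 ± 0.08. In the base, Psmc4 was at -0.34 ± 0.14 (adjusted p = 0.128) and Psmc6 at 0.02 ± 0.07. At 36 h Psmc4 read 722 in the SETD5 arm and 1329 in the empty virus arm, and its second probe set gave 0.04 ± 0.09. In the lid, which had no positive estimate, Psmd7 was at -0.26 ± 0.10, with 0.18 ± 0.12 from its dimmer probe set, and Psmd3 at -0.06 ± 0.08. Among the activators, Psme3 was at -0.36 ± 0.12 (adjusted p = 0.0789) and Psme1 at 0.03 ± 0.09, and among the cap chaperones Psmd9 was at 0.21 ± 0.08 and Psmd5 at -0.04 ± 0.08.

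Without the 36 h arrays, 6 members were called lower late, namely Psma1, Psma5, Psmc1, Psmd1, Psmd11 and Psme3, where 9.23% of all tested genes were called lower. Over 96 and 192 h alone 5 were called lower (11.4% of all tested genes), and Psma1 was then at -1.09 ± 0.12 (adjusted p = 0.000302). Without the 96 h arrays none was called, with 93 of the 8682 tested genes called lower and 198 higher.

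Psmd9 went the other way. It read 150, 162, 157, 105, 112, 101 and 115 in the SETD5 arm and 125, 120, 122, 96.8, 101, 81.8 and 87.7 in the empty virus arm. SETD5 was the higher at all 7 hours, as it was for 689 of the 8682 tested genes. Over all hours the difference was 0.25 ± 0.06 (adjusted p = 0.0458, n = 7 hours). In that comparison 0 members were called lower (0.887% of all tested genes), and 2 were lower at an unadjusted p under 0.05 (629 of 8682 genes). Psmd9 was the single member called higher there (2.73%). The call was lost when any 1 hour was left out, and in 13 of 16 alternatives in all. A dimmer probe set of Psme4 was called lower with SETD5, at -0.43 ± 0.08 over all hours (adjusted p = 0.0203) and -0.35 ± 0.10 late (adjusted p = 0.0458). The brightest Psme4 probe set gave -0.12 ± 0.07 and -0.14 ± 0.10, and another 0.08 ± 0.06 and 0.10 ± 0.08, none of them called, so the probe sets of this gene disagreed.

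Over 0, 12 and 24 h no member was called higher (0.0230% of all tested genes) or lower (0%). At an unadjusted p under 0.05, 2 were higher and 0 lower, against 364 higher and 176 lower of the 8682 tested genes. The change of the difference between the arms with time, late minus early, was negative for 36 of 37 members, with a median of -0.14 against 0.02 over all tested genes, and it was called for none (0.0115% of all tested genes in each direction). Of the 8682 tested genes 4010 were negative. At an unadjusted p under 0.05, 4 members were lower (572 of all tested genes). Psma1 was the furthest at -0.65 ± 0.22 (adjusted p = 0.342), and Psmc3 was the single positive member at 0.16 ± 0.12. Early medians were 0.05 for the core, or -0.01 without the 0 h arrays, and 0.04 for the cap.

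**Figure D4:**
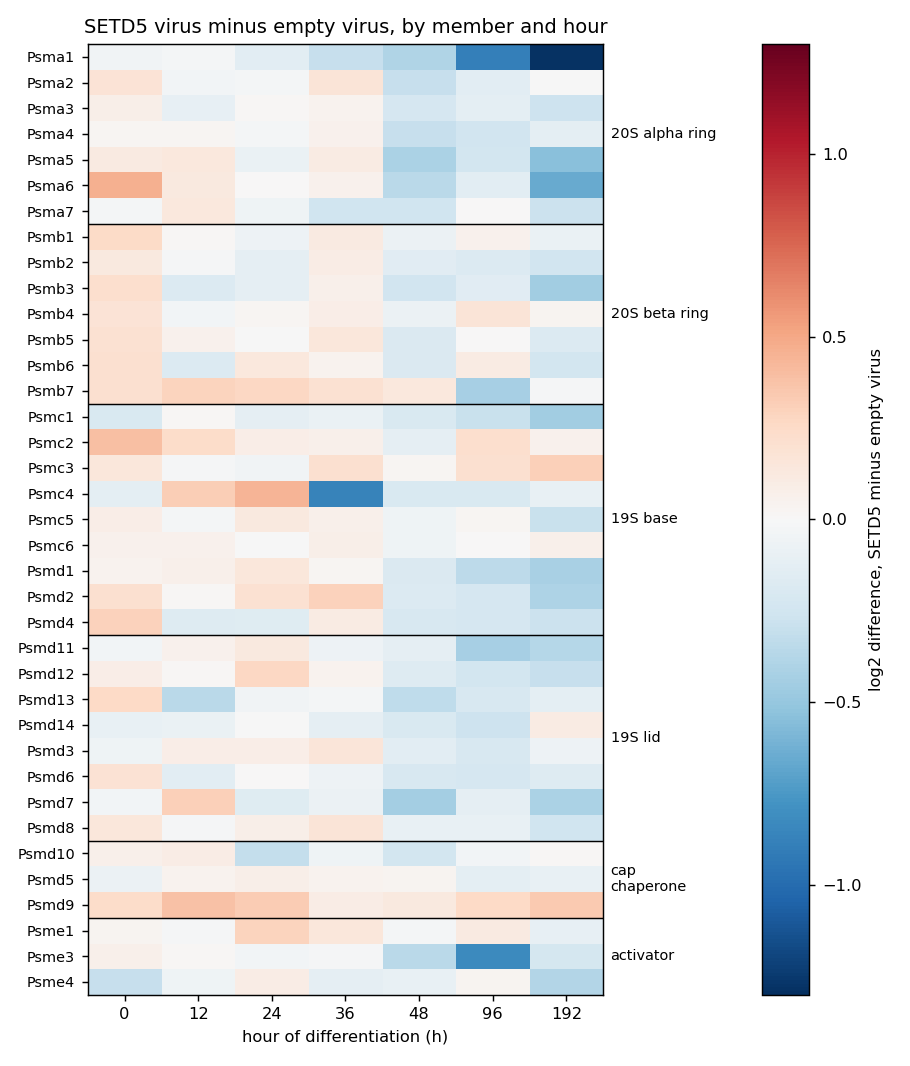
Each cell is the log2 difference, SETD5 virus minus empty virus, of 1 member (rows, grouped by role) at 1 hour (columns), blue where SETD5 was lower. Blue cells prevail at 48, 96 and 192 h, where 33, 25 and 30 of 37 members lie below 0, and Psmd9 is above 0 at every hour.

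Within each arm, the mean of the mixture hours (12 to 48 h) was set against the 0 h array. Here 1 array stood for 0 h, with the spread among all hours within the phases. In the SETD5 arm the members' median was 0.20 and Psme1 was called lower (-0.97 ± 0.20, adjusted p = 0.0423), with 1.83% of all tested genes lower. None was called higher (0.714%), and 3 were at an unadjusted p under 0.05 (489 of the 8682 tested genes). With the empty virus the median was 0.34, Psme1 was lower (-1.03 ± 0.20, adjusted p = 0.0241, 3.39% of all tested genes) and Psma1 higher (1.04 ± 0.26, adjusted p = 0.0477, 1.14%). With SETD5 the call of Psme1 was lost when any 1 later hour was left out. With the empty virus it was lost without the 24 or 48 h arrays, and that of Psma1 without any 1 hour from 24 h on. No member was called for a difference between the arms in this change (0% of all tested genes in each direction). None had an unadjusted p under 0.05, against 13 higher and 7 lower of the 8682 tested genes. The 0 h array of the SETD5 arm was above that of the empty virus arm for 27 of the 37 members. As a mean of both arms, the largest change of each role was that of Psma1 (0.95), Psmb3 (0.51), Psmc5 (0.45), Psmd7 (0.75), Psmd5 (0.12) and Psme3 (0.26). The smallest or most negative were those of Psma3 (0.20), Psmb6 (0.18), Psmc4 (0.08), Psmd14 (0.10), Psmd9 (-0.17) and Psme1 (-1.002).

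After the mixture was withdrawn, most estimates were below 0. The mean at 96 and 192 h minus that of the mixture hours was negative for 35 of 37 members in the SETD5 arm, with a median of -0.38. In the empty virus arm it was negative for 32 of 37, with a median of -0.23. Of all 8682 tested genes it was negative for 4233 with SETD5 (median 0.01) and 4424 with the empty virus (median -0.01). In the SETD5 arm Psmd7 (-0.83 ± 0.17, adjusted p = 0.0214), Psmb7 (-0.54 ± 0.14) and Psmd8 (-0.48 ± 0.12) were called lower, where 2.35% of all tested genes were called lower. None was called higher (5.17%). In the empty virus arm Psmd7 (-0.65 ± 0.17, adjusted p = 0.0408), the ATPase gene Psmc3 (-0.52 ± 0.11) and Psmb4 (-0.45 ± 0.11) were called lower, where 3.84% were called lower, and none was called higher (6.50%). At an unadjusted p under 0.05, 20 members were lower and 1 higher in the SETD5 arm, and 11 lower and 1 higher in the empty virus arm. Of the 8682 tested genes, 956 were lower and 1395 higher with SETD5, and 1197 lower and 1407 higher with the empty virus. In the SETD5 arm none was called without the 24, 96 or 192 h arrays, and with the empty virus none was without the 24 or 192 h arrays. No member was called for a difference between the arms in this change either (0% in each direction). At an unadjusted p under 0.05, 3 were lower and 0 higher, against 354 lower and 238 higher of the 8682 tested genes. For Psma1 the change was -0.70 ± 0.20 with SETD5, against 0.17 ± 0.20 with the empty virus, a difference of -0.87 ± 0.28 (adjusted p = 0.627).

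The hours of the lowest and highest intensity were counted in each arm. In the SETD5 arm the lowest intensity was at 192 h for 25 of 37 members, and in the empty virus arm it was at 0 h for 20 and at 192 h for 8. The highest was at 12 h for 21 members with SETD5 and 15 with the empty virus, and it was at 48 h for 0 members with SETD5 and 11 with the empty virus. All 14 core members were below their 0 h value at 192 h in the SETD5 arm, and 3 were in the empty virus arm. The median change over all tested genes at that hour was -0.02 with SETD5 and -0.11 with the empty virus. The single 0 h arrays already differed, with SETD5 above the empty virus for 12 of the 14 core members. The median of that 0 h difference was 0.18 for the core, against 0.04 over all tested genes. The difference between the arms at 192 h was not tested.

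Genes that build or serve the proteasome were read from a list of 37 related genes, of which 26 passed the filter. At 12 h, 10 of the 26 were called higher and 5 lower, where 19.9% of all tested genes were called higher and 27.9% lower. Of the 5 chaperones of core assembly, Pomp (0.77 ± 0.20, adjusted p = 0.0104), Psmg1 (0.69 ± 0.16), Psmg3 (0.64 ± 0.14) and Psmg2 (0.45 ± 0.12) were higher. Among proteins that dock on the cap, the deubiquitinase gene Uchl5 was higher by 1.04 ± 0.15 (adjusted p = 0.000396) and Usp14 by 0.32 ± 0.10. The shuttle gene Ubqln4 was higher by 1.20 ± 0.15 at 12 h, at 116 with SETD5, against 129 with the empty virus, and was called at no other hour.

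Nfe2l1, which encodes the regulator named above, was lower at 12 h (-0.49 ± 0.11, adjusted p = 0.00524) and at 24 h (-0.45 ± 0.11), and Ngly1, whose product processes it, was lower at 12 h (-0.36 ± 0.12). Its dimer partner Mafg was higher at 12 h, by 0.90 ± 0.18 (adjusted p = 0.00245). Akirin2, whose product carries the proteasome into the nucleus, was lower at 12 h, at -0.58 ± 0.13, as was Zfand5, whose product binds it, at -0.48 ± 0.12. The immunoproteasome gene Psmb10 read 323, 102, 101, 134, 153, 196 and 271 with SETD5, against 284, 86.5, 69.3, 132, 146, 131 and 255 with the empty virus. It was lower at 12 h, at -1.53 ± 0.14 (adjusted p = 3.52e-05), the hour at which Psme1 was also lower. Psmb8 and Psmb9 did not pass the filter, with no value above 33.4. In the late comparison between the arms, 1 of the 26 related genes was called lower, Uchl5 at -0.29 ± 0.08 (adjusted p = 0.0422). Of all tested genes 4.56% were called lower there. No related gene was called higher, against 7.43% of all tested genes.

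Psma8 and Psmb11, known from testis and thymus, did not pass the filter and had no value above 8.9 on any array. Of the 84 probe sets of the 39 members, 45 were not the brightest of their gene, and 21 of those passed the filter, for 15 genes. At 12 h 11 of the 21 were called higher and 0 lower, where 19.9% of all tested genes were called higher and 27.9% lower. Of the 11, 2 were called where the brightest probe set of the gene was not. For 1 of the 21 only the brightest probe set of the gene was called. Psme2 was not analysed here, as its probe set is shared with a second gene.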

How the data were processed

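RNA of 3T3-L1 cells with a SETD5 or an empty retrovirus was measured on 14 arrays. Per the labels, the deposited intensity values are average differences from GeneChip Analysis Suite 5.0. The authors had scaled every array to a trimmed mean of 100, and no log had been taken. Depth does not apply to arrays, and their number limits the precision. Symbols came from the platform annotation: 34944 of 45100 probe sets had 1 symbol, 932 several and 9160 none, and 64 were controls. Of a gene's probe sets the brightest was used. Genes at 50 or more on 3 arrays were tested as log2 of intensity plus 16, with limma 3.58.1 in R 4.3.3 (lmFit and eBayes, two-sided, Benjamini-Hochberg). The arms were compared within hours, with the hour as the replicate block (6 residual degrees of freedom over all hours, 5 for windows), hours over both arms with arm as a block, and phases in a model with 8. Same-numbered samples share an hour, which is where the pairing comes from. Members and lists were chosen with earlier results of these data known. The text names, per comparison, up to 10 called members each way, and per role the brightest member and those with the largest and smallest change at the mixture hours and late difference, up to 8 called related genes, and Psmd4, Psmd5, Psmd9, Psmd10 and the Psme genes. Related genes with no probe set of their own were not analysed here. Alternatives were other scalings, offsets, filters, probe sets, windows and priors, no replicate block, and leaving out each hour. The fits were tested on simulated data.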

Additional observations from a re-analysis of the deposited data

Results flagged for a closer look

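Over 37 members and the medians of all members, core and cap, 40 groups of 7 hourly differences were looked at for a single hour far from the others, where chance flags about 1 in 20 groups. One stood apart. Psmb7, the trypsin-like subunit, was at -0.43 on the log2 scale at 96 h (234 with SETD5 and 320 with the empty virus), while its other 6 hourly differences lay between -0.01 and 0.29. No member's change in a phase was called different between the arms by a test of the difference itself. That test called 0 of the 8682 tested genes. Its spread holds the changes between the hours of a phase, so it cannot show that the arms changed alike.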

How the results depend on the processing

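No called result changed sign in the alternatives, nor did the late differences of Psme3, Psmc4, Psmc1, Psmd11, Psmd1 and Psma5. The signs of other named late differences were not checked this way. Single other probe sets did give the opposite sign, as for Psmd7 at 48 h and late and for Psmc4 late. Each change below has no tested cause. Members called higher over all hours were 0 with quantile normalization, a common median, an offset of 64, no filter, no replicate block (a fit that ignores which arrays share an hour) and the trend prior, and 0 to 0 with any hour left out, against 1. Members called lower late were 0 with no replicate block, 5 over 96 and 192 h (late minus early 1) and 0 to 6 with 1 hour left out, against 1. Apart from these, the replicate block changed no count by over 1.5 times. Counts against 0 h moved most with scaling. The counts over all tested genes moved with the settings as well. At 36 h the genes called higher were 1451 with a common median, 1108 with an offset of 64 and 1106 with the trend prior, against 1076. At 36 h, members called higher were 12 with a common median, 9 with an offset of 64 and 5 with the trend prior (2 to 7 leaving out hours), against 3, and members called lower were 1 with quantile normalization and with a common median, against 2. At 48 h, members called lower were 1 with quantile normalization, a common median, an offset of 64, no filter and the trend prior (1 to 2 leaving out hours), against 2. At 96 h, members called higher were 0 with quantile normalization and no filter (0 to 3 leaving out hours), and at 192 h members called lower were 2 with no filter (2 to 4 leaving out hours), against 4. For the mixture hours, SETD5 arm, 1 was higher with the mean of all probe sets (0 to 1 leaving out hours) and 0 lower with a common median (0 to 0 leaving out hours). With the empty virus, members called higher were 0 under quantile normalization, an offset of 4, no filter and a filter of 100, and 2 with a common median, an offset of 64 and the trend prior, and 0 to 1 were higher and 0 to 1 lower leaving out hours. For insulin alone, members called lower in the SETD5 arm were 9 with a common median and an offset of 64, 5 with the mean of all probe sets and 8 with the trend prior (0 to 3 leaving out hours), against 3. With these settings in turn, 276, 232, 204 and 227 of all tested genes were called lower, against 204. For the empty virus 1 was higher with quantile normalization and an offset of 64, and 1 lower with the mean of all probe sets (0 to 3 leaving out hours).

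Only medians within 0.06 of 0 changed sign, at 96 and 192 h and between the arms. At 12 h that of the members was 0.33 with quantile normalization, 0.51 with a common median, 0.40 and 0.38 with offsets of 4 and 64, and 0.38 with no filter and with the mean of all probe sets. That of the core was 0.31 with quantile normalization, 0.47 with a common median and 0.32 with no filter, and that of the cap 0.65 with a common median. With quantile normalization the medians of members, core and cap were 0.17, 0.16 and 0.32 at 24 h and 0.12, 0.10 and 0.16 at 36 h. With a common median that of the cap was 0.47 at 24 h, and at 36 h they were 0.29, 0.37 and 0.32. Over the mixture hours the core median was 0.28 in the SETD5 arm with a common median. In the empty virus arm the medians of members and core were 0.21 and 0.19 with quantile normalization and 0.44 and 0.45 with a common median. The early cap median between the arms was 0.0412 to 0.0957 leaving out hours. In all, 381 of 462 counts and 667 of 693 medians stayed near their main value, but many of these could not move. The trend prior, dropping the replicate block and leaving out an hour that a comparison does not use leave its medians as they were. Counts of 0 that stayed at 0 were included too. These totals are thus no measure of how robust the results are. Dim probes such as those of Psme3 limit what these arrays can show.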
